A study of Rattus norvegicus with 6 samples.

Results

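The facilitative glucose transporters and the proteins that control glucose phosphorylation were examined in pancreatic islets isolated from rats aged 12 and 3 months. The set holds 7 genes: the transporters *Slc2a1*, *Slc2a2*, *Slc2a3* and *Slc2a4*, hexokinase 2 (*Hk2*), *Gckr*, which encodes a regulatory protein of glucose phosphorylation in liver, and the islet glucose-6-phosphatase subunit *G6pc2*. A gene was measured if the RefSeq accession of a probe on the array mapped to its symbol. This gave 5 of the 7 genes, each with 1 probe printed on 1 spot, among 13903 genes and 24684 probes in all. *Gckr* and *G6pc2* had no matched probe and were not analysed here.

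All rats were male Wistar animals, and their islets, the hormone-secreting cell clusters of the pancreas, were isolated by collagenase digestion. Total RNA was labelled with Cy3 and hybridised to 1-colour Agilent arrays, 3 with islet RNA of 12-month-old rats and 3 with that of 3-month-old rats. The study's supplement names 3 rats of each age for these arrays, read here as 1 rat per array, and p-values measure the spread between these samples. Values are quantile-normalised log2 intensities, on which a difference of 1 is a 2-fold change, and differences are given as 12 months minus 3 months.

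Glucose enters cells through transporters of the Slc2a family, which let it pass down its concentration gradient, and hexokinases then trap it as glucose-6-phosphate. In rodent beta cells the low-affinity transporter GLUT2, encoded by *Slc2a2*, lets glucose entry follow the blood glucose concentration. High-affinity members such as *Slc2a1*, *Slc2a3* and *Hk2* are kept low in mature beta cells and serve most other tissues, and *Slc2a4* encodes the insulin-responsive transporter of muscle and fat.

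Each age was scanned separately, and no scan holds both ages, so that age and scan cannot be told apart here. Between 73.1% and 77.5% of probes were well above background on the 3-month arrays and between 59.5% and 64.2% on the 12-month arrays. Negative control spots had median signals of 29.5 to 31 scanner units at 3 months and 89.5 to 91 at 12 months. The 3-month array of replicate 1 was the dimmest, with a 75th percentile of log2 signal of 8.46 against 10.21 to 11.35 on the other 5 arrays. Defining markers of the labelled tissue were present, since *Ins1* and *Ins2* (insulin), *Gcg* (glucagon) and *Sst* (somatostatin) were well above background on all 6 arrays with means of 17.8 to 18.8. Acinar markers were present too, with 9 of 9 above background on all arrays. The log2 of their summed linear intensity ranged from 20.63 to 21.12 at 3 months and from 20.71 to 21.27 at 12 months. Such a sum is set mostly by the brightest genes of a list. For 7 beta cell markers without *Slc2a2* this value ranged from 19.70 to 19.92 and from 20.00 to 20.19.

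Of the 5 measured genes, *Slc2a2* was higher and *Slc2a4* lower at 12 months at an adjusted p under 0.05 (limma), while *Slc2a1*, *Slc2a3* and *Hk2* did not pass. Across all 17941 tested probes 8.37% passed in either direction, 5.32% higher and 3.05% lower. The same 2 genes were the ones with no overlap between the ages, as were 39.2% of all probes with a value on every array. At the threshold that the study used, more than a 2-fold change and an unadjusted p under 0.05, they were again the only ones of the 5. *Slc2a2* is among the genes that the study selected from these arrays for measurement by qPCR, where it reports an induction too. The direction of *Slc2a2* on these arrays is therefore not independent evidence. The median difference was -0.27 over the 5 genes and -0.17 over all tested probes.

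**Figure D1:**
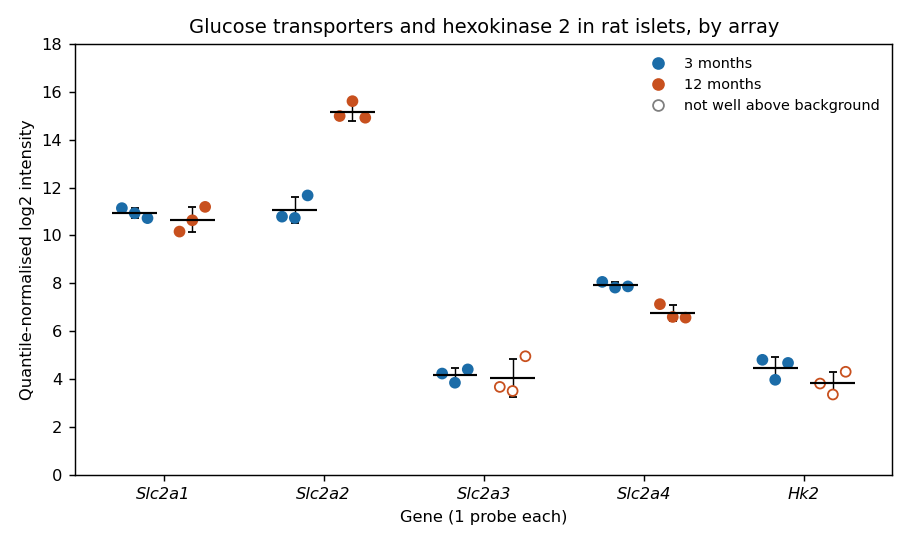
Quantile-normalised log2 intensity of the 5 measured genes on each array, with the mean and SD of 3 arrays per age; open circles mark arrays on which the probe was not well above background. *Slc2a2* lay between 14.92 and 15.61 on the 12-month arrays and at or below 11.67 on the 3-month arrays, and the 12-month values of *Slc2a3* and *Hk2* are all open circles.

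*Slc2a2* encodes GLUT2, the main glucose transporter of rodent beta cells and hepatocytes. Its log2 intensity was 10.79, 10.73 and 11.67 on 3-month replicates 1, 2 and 3, and 14.99, 15.61 and 14.92 on 12-month replicates 1, 2 and 3. Every 12-month array was thus above every 3-month array, and the 3-month replicate 3 was the highest of its age. The mean was 11.06 ± 0.53 at 3 months and 15.17 ± 0.38 at 12 months (SD, n = 3 each), a difference of 4.11 (SE 0.35, 95% interval 3.27 to 4.95, limma adjusted p = 0.00369). On a linear scale the 12-month level was 17.3 times the 3-month level, with an interval of 9.62 to 31.0. An exact permutation test of 3 arrays against 3 gave p = 0.1 (two-sided), the smallest that 20 arrangements allow.

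The probe was well above background on all 6 arrays and saturated on none. Before normalisation its background-subtracted signal was 479, 1639 and 4136 scanner units on the 3-month arrays and 54120, 76630 and 24529 on the 12-month arrays. The 3-month values therefore spread widely before scaling, and the lowest 12-month signal was still above the highest 3-month signal. The median signal of the spot over that of its local background ranged from 23.2 to 215 at 3 months and from 625 to 2008 at 12 months. In bulk islet RNA, fewer or more cells of a type and less or more RNA per cell cannot be told apart.

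Among 11201 genes with a tested probe, 28 had a difference at least as large as that of *Slc2a2*, itself included. Only 12 of these were well above background on all 3 of the 3-month arrays, *Slc2a2* among them. The first genes of that ranking are *Ghr*, the growth hormone receptor, at 6.95 and *Lig4*, a DNA ligase, at 6.16, both above background on at most 1 of the 3-month arrays.

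The difference of *Slc2a2* was also read as a ratio of signals on the same array, without any scaling between arrays. The log2 ratio of *Slc2a2* to *Slc2a1* was -0.38, -0.22 and 1.06 on the 3-month arrays and 4.53, 4.79 and 3.58 on the 12-month arrays. The ages did not overlap, and the mean ratio moved by 4.15. Against *Slc2a4* the mean ratio moved by 5.14. Both ratios gave p = 0.1 by the exact permutation test, the smallest possible, and 0.1 after Benjamini-Hochberg adjustment over the 4 ratios computed. Those to *Slc2a3* and *Hk2* are not given, since neither probe was well above background at 12 months. These ratios show an unequal change within an array and do not tell which probe moved.

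The stretch upstream of *Slc2a2* is shown because it is the measured gene with the largest change, and that of *Slc2a1* because this ubiquitous transporter did not pass the test. Both are the 250 bases before the gene's start in RefSeq on assembly GRCr8, plus strand, at chr2:113540120-113540369 for *Slc2a2* and chr5:138002272-138002521 for *Slc2a1*. Capitals mark matches on either strand to TAAT, the core bound by homeodomain factors, to the GC box GGGCGG and to the TATA box TATAAA, none of which overlap here.
Slc2a2: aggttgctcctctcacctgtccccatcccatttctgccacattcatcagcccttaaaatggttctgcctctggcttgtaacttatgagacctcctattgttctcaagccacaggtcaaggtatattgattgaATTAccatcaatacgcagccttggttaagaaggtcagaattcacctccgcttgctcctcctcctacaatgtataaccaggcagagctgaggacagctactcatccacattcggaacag
Slc2a1: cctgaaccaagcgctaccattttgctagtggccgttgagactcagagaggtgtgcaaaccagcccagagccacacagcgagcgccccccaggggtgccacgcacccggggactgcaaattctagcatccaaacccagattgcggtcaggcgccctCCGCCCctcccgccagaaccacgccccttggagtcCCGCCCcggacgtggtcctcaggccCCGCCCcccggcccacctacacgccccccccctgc
The *Slc2a2* stretch held 1 TAAT match, whose first base lay 118 bases before the start, and no GC box or TATA box. It also held 1 match to the E-box CANNTG, not in capitals, 237 bases before the start. The *Slc2a1* stretch held 3 GC boxes, 95, 60 and 35 bases before the start, and none of the other motifs. GC content was 47.2% for *Slc2a2*, with 3 CpG dinucleotides, and 68.4% for *Slc2a1*, with 17, against a median of 51.2% over 33469 promoters. Of those promoters 57.0% hold TAAT, 65.5% CANNTG, 30.5% GGGCGG and 12.9% TATAAA in the same window. A match describes letters only. Promoter entries were matched for 5 of the 7 genes, *Slc2a1*, *Slc2a2*, *Gckr*, *G6pc2* and *Hk2*, and not for *Slc2a3* and *Slc2a4*.

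*Slc2a4*, the insulin-responsive transporter, was lower at 12 months after normalisation. Its log2 intensity was 8.06, 7.82 and 7.87 on the 3-month arrays and 7.13, 6.59 and 6.57 on the 12-month arrays, so that the ages did not overlap. The difference was -1.15 (SE 0.26, 95% interval -1.76 to -0.55, limma adjusted p = 0.0433), or a 3-month level 2.23 times the 12-month level. The call was lost in each of the 6 fits that left out 1 array, where adjusted p ranged from 0.0659 to 0.126, although the difference stayed between -1.34 and -1.06. The probe was well above background on all 6 arrays, but its spot was only 4.85 to 13.8 times as bright as its local background. Its background-subtracted signal before normalisation was 90.7, 198 and 258 scanner units at 3 months and 270, 137 and 90.4 at 12 months. These signals overlapped, so that the separation of the ages depends on scaling between arrays.

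Markers of muscle and fat, where *Slc2a4* is best known, had fitted differences of both signs. Of 9 matched markers 8 were tested, 1 was called higher and 2 lower, with a median difference of -0.23. Across all tested probes 8.37% passed in either direction. Above background on all arrays were 5 of the 9 markers. The log2 of the summed intensity of the markers ranged from 11.40 to 11.67 at 3 months and from 11.67 to 12.59 at 12 months. The fitted difference was -2.62 for the fast muscle myosin *Myh4* (limma adjusted p = 0.00724) and -2.35 for myoglobin, *Mb* (adjusted p = 0.0189). These 2 calls of lower came from probes that passed the filter through the 3-month arrays only. The lowest log2 value counted as well above background was 4.26 to 5.13 on the 12-month arrays. At 3 months *Myh4* read 4.93 to 5.64 and *Mb* 5.85 to 6.28. Both differences therefore compare a dim signal with one that was not well above background, and no fold is given. The fat cell lipid carrier *Fabp4* differed by 2.49 (adjusted p = 0.0185). The part of these tissues in the *Slc2a4* result was not tested.

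*Slc2a1* encodes the ubiquitous high-affinity transporter GLUT1. Its log2 intensity was 11.14, 10.93 and 10.72 at 3 months and 10.16, 10.63 and 11.19 at 12 months, and the ages overlapped, with the lowest and the highest value both on 12-month arrays. The difference of -0.27 had a 95% interval of -1.03 to 0.50 (limma adjusted p = 0.581), so that changes up to a 2.05-fold fall or a 1.41-fold rise lie within it.

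*Slc2a3*, the high-affinity transporter GLUT3 of neurons, and *Hk2*, the hexokinase of insulin-sensitive tissues, were close to background. *Slc2a3* read 4.23, 3.85 and 4.40 at 3 months and 3.67, 3.50 and 4.95 at 12 months. *Hk2* read 4.80, 3.97 and 4.67 at 3 months and 3.81, 3.35 and 4.30 at 12 months. For both genes the ages overlapped, and the probe was well above background on all 3 of the 3-month arrays and on none of the 12-month arrays. The fitted differences of -0.12 for *Slc2a3* (adjusted p = 0.862) and -0.66 for *Hk2* (adjusted p = 0.237) therefore compare a dim signal with one that was not well above background, and no fold is given. With arrays shifted to the same 75th percentile *Hk2* differed by -1.38 (unadjusted p = 0.0354, adjusted p = 0.110 in limma) and *Slc2a3* by -0.88 (adjusted p = 0.310), and under normexp background correction *Hk2* differed by -0.13 and *Slc2a3* by 0.02. The raw spots of both genes were brighter at 12 months, from 111 to 118 scanner units against 41.0 to 65.0 at 3 months, as was the local background, from 36.0 to 43.5 against 19 to 25. Of all tested probes 1844 showed this same pattern of detection. Of these, 182 were called lower and 0 higher, with a median difference of -0.84. Over all 17941 tested probes 547 were called lower and 955 higher, with a median of -0.17. Probes of this pattern passed the filter through the 3-month arrays only, which favours lower readings at 12 months. Of 8 tested markers of neurons and Schwann cells, 7 had a negative difference and 2 were called lower. Among all tested probes 58.0% had a negative difference and 3.05% were called lower. The part of neurons and Schwann cells in the reading of *Slc2a3* was not tested.

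Of the 9 tested genes of the Slc2a family 7 had a negative difference, as did 58.0% of all tested probes. Of the 9, *Slc2a2* was called higher and 3 were called lower, *Slc2a4*, *Slc2a5* and *Slc2a12*, with a median difference of -0.63. Over all tested probes 5.32% were called higher and 3.05% lower, and the median difference was -0.17. *Slc2a5*, a fructose transporter, read 9.90, 9.34 and 10.28 at 3 months and 8.16, 8.55 and 8.17 at 12 months, a difference of -1.55 (SE 0.31, adjusted p = 0.0341). *Slc2a12* read 10.55, 10.02 and 10.05 against 8.71, 9.18 and 8.40, a difference of -1.44 (SE 0.30, adjusted p = 0.0372). Neither overlapped between the ages, as was so for 39.2% of all probes with a value on every array. *Slc2a5* passed in only 2 of the 6 fits that left out 1 array and *Slc2a12* in only 1.

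*Slc2a6* did not overlap between the ages either, like 39.2% of all probes with a value on every array. Its difference of -0.91 just missed the threshold (adjusted p = 0.0515). *Slc2a8*, an intracellular transporter, differed by 0.04 (95% interval -0.51 to 0.59, adjusted p = 0.925), and its sign turned under the 75th percentile shift (-0.05) and under normexp (-0.04). *Slc2a10* differed by -0.63 (adjusted p = 0.380). *Slc2a13*, a myo-inositol transporter, was above background on 2 arrays and was not tested. The sodium-coupled transporters *Slc5a1* and *Slc5a2* differed by 0.33 (adjusted p = 0.623) and -0.27 (adjusted p = 0.646), and no 12-month array read *Slc5a2* well above background. *Slc2a7* and *Slc2a9* had no matched probe.

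**Figure D2:**
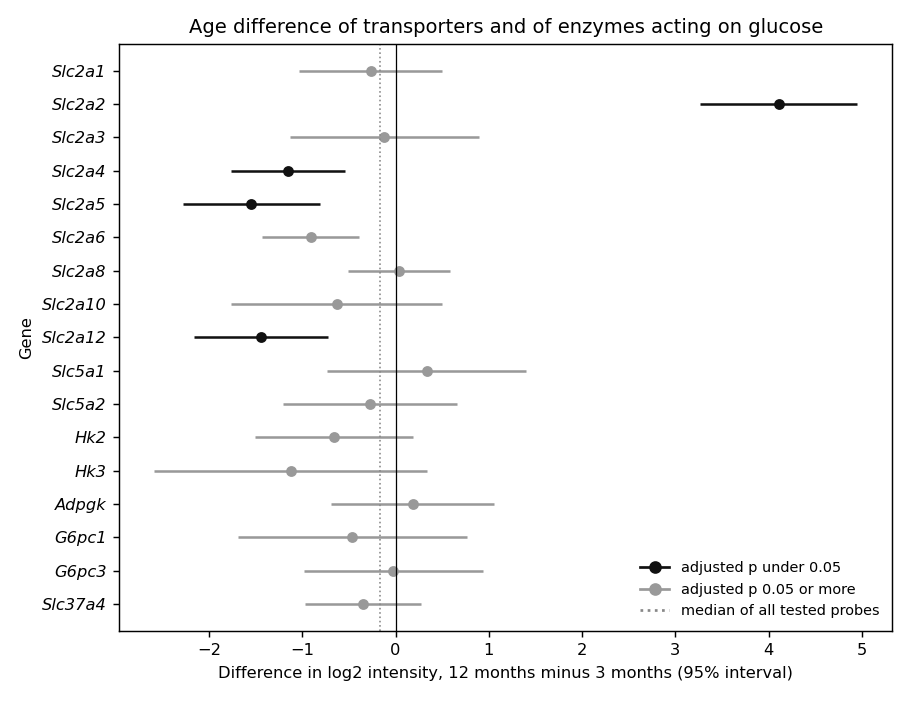
Difference in log2 intensity between 12-month and 3-month islets with its 95% interval from limma, for tested glucose transporters and for enzymes that add or remove phosphate on glucose (n = 3 arrays per age). Black marks an adjusted p under 0.05, and the dotted line is the median of all tested probes at -0.17. The interval of *Slc2a2* starts at 3.27, to the right of all other point estimates.

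None of the other 6 tested genes on the list of those that phosphorylate glucose or act on glucose-6-phosphate passed (limma). None had an unadjusted p under 0.05 either. Across all 17941 tested probes 8.37% passed, and 5820 had an unadjusted p under 0.05. *Hk3*, a hexokinase of blood cells, differed by -1.12 (adjusted p = 0.243). *G6pc1*, the glucose-6-phosphatase of liver, differed by -0.47 (adjusted p = 0.549), with 1 array left out (3-month replicate 2) turning its sign to 0.05. The ubiquitous *G6pc3* differed by -0.02 (adjusted p = 0.974), and its sign turned under normexp (0.03). *Slc37a4*, which carries glucose-6-phosphate into the endoplasmic reticulum, differed by -0.35 (adjusted p = 0.374), and *Adpgk*, an ADP-dependent enzyme of glucose phosphorylation, by 0.18 (adjusted p = 0.747). *Hk1* and *Hkdc1* had no matched probe.

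Further genes of glucose handling were read from lists of glycolysis, its control and the fate of pyruvate, the pentose phosphate path and glycogen, and transcription factors that act on these genes. With the transporters and enzymes above they hold 74 tested genes outside the set of 7, of which 4 were called higher and 4 lower, or 10.8% against 8.37% of all tested probes. Their median difference was -0.31, and 25 were above 0 and 49 below, against 58.0% of all tested probes below 0.

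Of the 18 tested enzymes of glycolysis none passed (limma), against 8.37% of all tested probes, and the median was -0.27. An unadjusted p under 0.05 was found for 4 of the 18, against 5820 of all 17941 tested probes. Between 0 and 3 of the 18 enzymes passed under the other settings. The neuronal and endocrine enolase *Eno2* came nearest, at 7.24, 6.20 and 5.51 against 8.76, 8.04 and 10.02, a difference of 2.62 (adjusted p = 0.0503). *Pfkfb2*, which sets the level of the glycolytic activator fructose-2,6-bisphosphate, rose by 2.45 (SE 0.39, adjusted p = 0.0184), from 8.56, 9.90 and 8.89 to 11.35, 11.80 and 11.56. Its other 2 probes, for other accessions, gave 0.89 (adjusted p = 0.119) and 0.43 (adjusted p = 0.339).

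*Pdk2*, a kinase that inhibits pyruvate dehydrogenase, was lower by -0.99 (adjusted p = 0.0398), from 12.91, 12.70 and 12.75 to 11.75, 11.86 and 11.76. For its relative *Pdk3* the 2 probes went against each other: the brighter one gave -0.68 (adjusted p = 0.375), and the other, well above background on 12-month arrays only, gave 4.28 (adjusted p = 0.00252). *Gys1*, the glycogen synthase of muscle and most tissues, was lower by -1.47 (adjusted p = 0.0416). Of the 14 tested genes of its list 12 had a negative difference, against 58.0% of all tested probes. *Pdk2* passed in 0 of the 6 fits that left out 1 array, *Gys1* in 1 and *Pfkfb2* in 2.

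**Figure D3:**
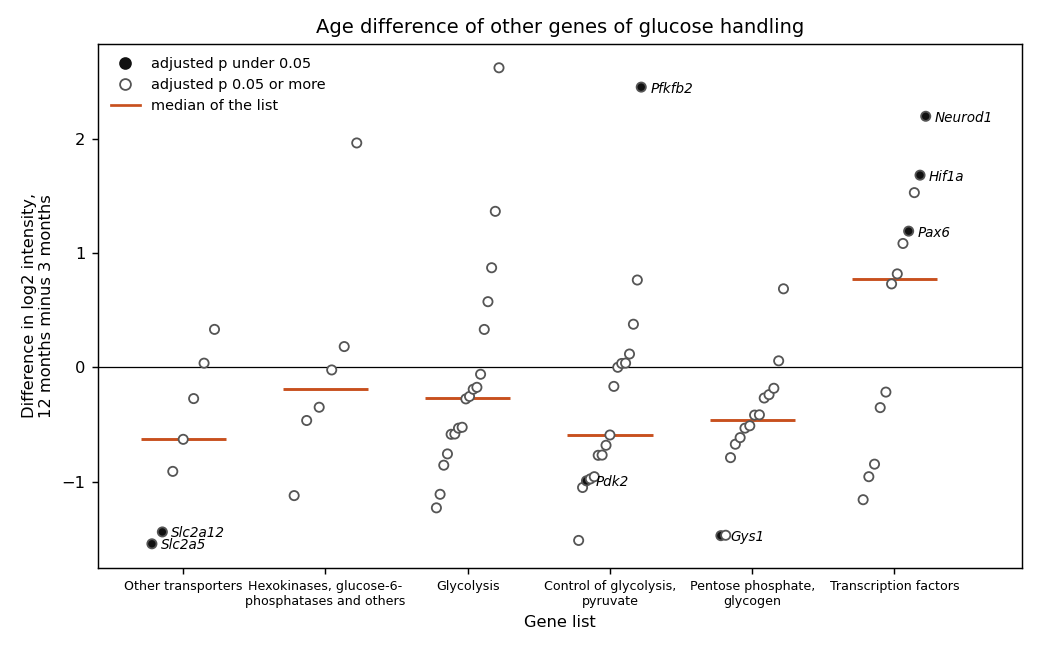
Difference in log2 intensity (12 months minus 3 months) of 74 other tested genes of glucose handling, 1 point per gene in 6 lists; filled points have an adjusted p under 0.05 and are named, and the bar is the median of the list. The list of transcription factors has a median of 0.77, and the medians of the other 5 lists lie below 0.

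Among 12 tested transcription factors and regulators 3 rose and none fell by the adjusted threshold, with a median of 0.77. Across all tested probes 5.32% passed higher and 3.05% lower, with a median of -0.17. *Neurod1*, a factor of endocrine cells that acts on the insulin gene, rose by 2.20 (SE 0.28, adjusted p = 0.0108), from 11.45, 12.06 and 12.09 to 13.79, 14.26 and 14.14. *Pax6*, a homeodomain factor of all islet endocrine cells, rose by 1.19 (adjusted p = 0.0489), and *Hif1a*, the oxygen-sensitive factor that acts on genes of glycolysis, by 1.68 (adjusted p = 0.0335). *Neurod1* passed in all 6 fits that left out 1 array, *Hif1a* in 1 and *Pax6* in none. The study selected *Neurod1* from these arrays for qPCR, where it reports an induction too. The study's pathway tables of the genes it called changed hold *Neurod1*, *Pax6*, *Hif1a* and *Pfkfb2*. The direction of these genes on these arrays is therefore not independent evidence. *Pdx1*, *Mafa* and *Mlxipl*, the gene of the glucose-responsive factor ChREBP, had no matched probe.

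Other genes that mark beta cells were read beside *Slc2a2*. Of 7 tested beta cell markers besides *Slc2a2*, 1 was called higher and none lower. Of the 7, 5 had a positive and 2 a negative difference, with a median of 0.59. Across all tested probes 8.37% passed in either direction and 58.0% had a negative difference, with a median of -0.17. All 7 markers were well above background on every array. The marker called higher was *Slc30a8*, the zinc transporter of insulin granules, at 10.63, 10.21 and 10.02 against 13.83, 13.28 and 14.90, a difference of 3.71 (SE 0.44, adjusted p = 0.00904). *Ins1* and *Ins2* differed by 0.10 (adjusted p = 0.786) and -0.12 (adjusted p = 0.737), near the top of the signal range. *Iapp*, the gene of amylin, differed by 0.95 (adjusted p = 0.0532) and *Ucn3*, a marker of mature beta cells, by 1.49 (adjusted p = 0.174). The log2 of the summed intensity of the 7 markers ranged from 19.70 to 19.92 at 3 months and from 20.00 to 20.19 at 12 months. This sum is set mostly by the brightest markers, *Ins1*, *Ins2* and *Iapp*. Since *Slc2a2* also serves hepatocytes, markers of liver were read too. Of 6 matched, 5 were well above background on all arrays and were tested, and the tyrosine aminotransferase gene *Tat* was above background on no array. None of the 5 passed (limma, 1 had an unadjusted p under 0.05), and 4 had a negative difference, against 58.0% of all tested probes. An unadjusted p under 0.05 was found for 5820 of all 17941 tested probes. The log2 of the summed intensity of the liver markers ranged from 13.16 to 14.51 at 3 months and from 13.86 to 14.50 at 12 months. The part of cell composition in the *Slc2a2* result was not tested beyond these values.

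**Figure D4:**
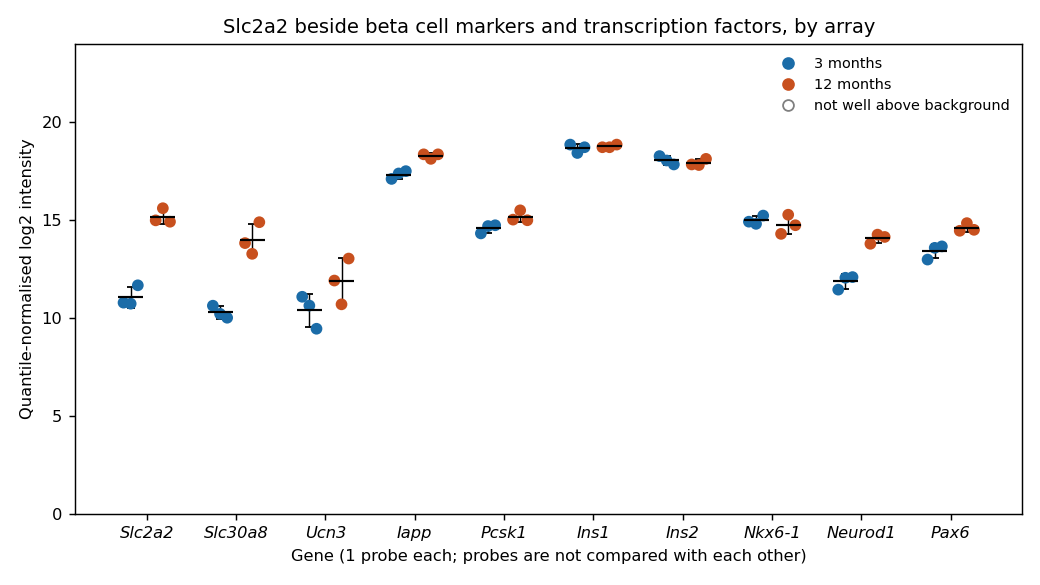
Quantile-normalised log2 intensity of *Slc2a2* beside 7 beta cell markers (*Slc30a8*, *Ucn3*, *Iapp*, *Pcsk1*, *Ins1*, *Ins2* and *Nkx6-1*) and the transcription factors *Neurod1* and *Pax6* on each array, with the mean and SD of 3 arrays per age. *Slc2a2*, *Slc30a8*, *Neurod1* and *Pax6* do not overlap between the ages and passed the test. *Iapp* and *Pcsk1* do not overlap either but did not pass. Of all probes with a value on every array 39.2% do not overlap. *Ins1* and *Ins2* lie between 17.82 and 18.86 at both ages.

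The genes whose profile over the 6 arrays was most like that of *Slc2a2* were sought among 9086 other genes well above background on every array, by the root mean square distance between values centred on each gene's own mean. The nearest were *Rexo4* at 0.33 log2 units, *Gtf3c3*, a subunit of a polymerase III transcription factor, at 0.35, *Ptbp2*, a neuronal splicing regulator, at 0.40, *Pawr*, a regulator of cell death, at 0.42 and *Pcmtd2* at 0.45. Their own differences ranged from 3.55 to 4.36. None of the 5 overlapped between the ages, as was so for 39.2% of all probes with a value on every array. Both the size of these differences and the lack of overlap follow from choosing genes by their likeness to *Slc2a2*. The likeness itself rests on 6 arrays.

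**Figure D5:**
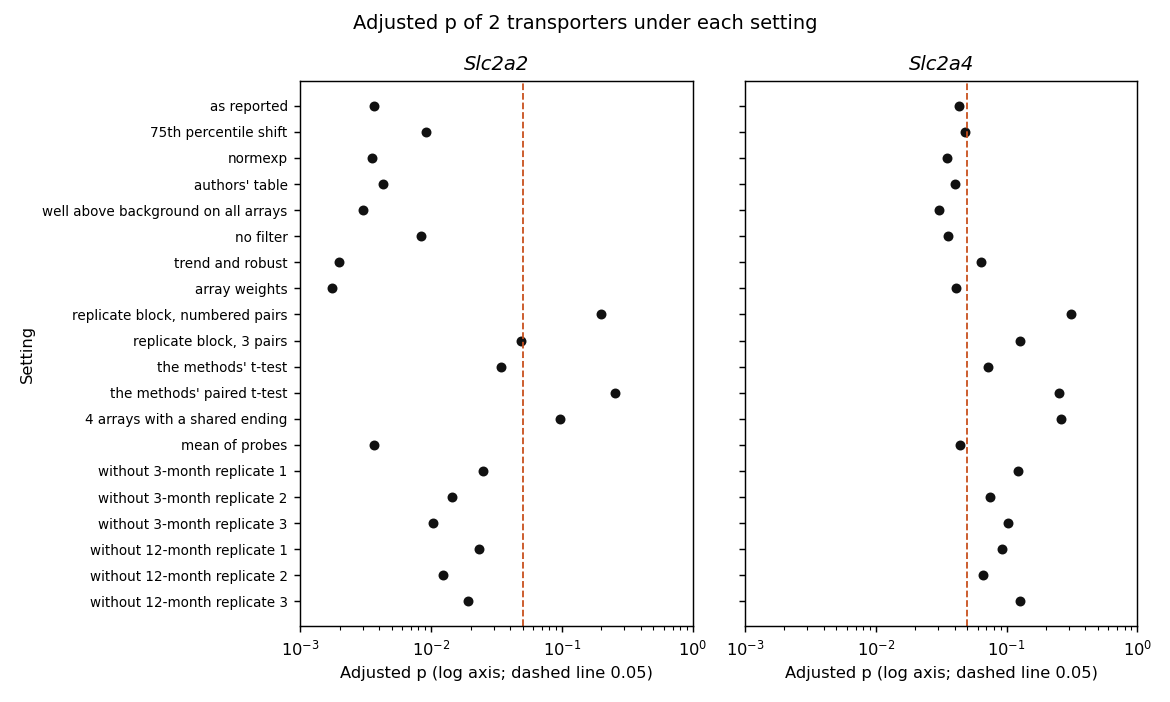
Adjusted p of *Slc2a2* and of *Slc2a4* as reported and under each of the 19 other settings of each panel (log axis, dashed line at 0.05). *Slc2a2* lies to the left of the line in all but 3 of them, whereas *Slc2a4* lies to the right of it in 12, among them each fit without 1 array.

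Over 19 alternatives that kept this threshold the difference of *Slc2a2* stayed between 3.83 and 4.54. It passed in 16 of them and missed in the fit with the replicate number as a block, the paired form of the test named in the methods, and a fit of 4 arrays, with adjusted p of 0.198, 0.256 and 0.0958. *Slc2a4* had a negative difference in all 19, from -1.34 to -0.83, and passed in 7.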

How the data were processed

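Islet RNA of 6 arrays (3 per age, grouped by the labelled age) was analysed. Per the file headers, the deposited scanner files hold spot intensity from Agilent Feature Extraction 11.0.1.1, subtracted for background and not normalised between arrays. The authors also deposited a table of quantile-normalised log2 values, used as an alternative. Arrays have no read depth, and their number limits the precision.

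The log2 background-subtracted intensity of 42136 non-control spots was averaged per probe over spots not marked as outliers. The resulting values of 24684 probes were quantile normalised. Probes well above background on at least 3 arrays were kept (17944), and 17941 could be tested. Ages were compared with limma 3.58.1 in R 4.3.3 (lmFit and eBayes, no block, two-sided, Benjamini-Hochberg adjustment over all tested probes). This fit was tested on simulated data with known changes. Genes were named by matching RefSeq accessions without versions to a GRCr8 table, and the probe with the highest mean was used.

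A gene of the lists is not reported here by itself, although the counts include it. The 7 genes, the lists and the tests were chosen with earlier results of these data known. Named were the 7 genes, every listed gene with an adjusted p under 0.05, the other hexokinases, glucose-6-phosphatases and Slc2a genes, and the 5 genes nearest in profile to *Slc2a2*. *Eno2*, *Pdk3*, *Slc5a1*, *Slc5a2*, *Slc37a4*, *Adpgk*, *Hk3*, the marker genes and the 2 largest rises were added after their values were seen. Alternatives were another scaling, background correction (normexp, offset 50, on median signals), source of values, filter, variance model, array weights, blocks, t-tests, subsets of arrays and threshold.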

Additional observations from a re-analysis of the deposited data

How the results depend on the processing

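The main limits are the 3 arrays per age, the single probe per gene, and a scan for each age. The number of calls at an adjusted p under 0.05 over all probes was 1502, of which 63.6% were higher. It was 2339 without a filter, 4063 with array weights, 3823 at an adjusted p under 0.1, 437 with the methods' t-test, 1 with its paired form and 0 with the 4 arrays of the same name ending, where 3145 probes had an unadjusted p under 0.05. With arrays shifted to the same 75th percentile, 46.2% of 1719 calls were higher, and the median difference was -0.40 instead of -0.17. The study's methods name Student's t-test and its supplement a paired t-test, and both an equal-variance unpaired form and a paired form were run here.

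The labels number 2 arrays of the 12-month and 3 of the 3-month rats. Arrays with the same number did not deviate together, with correlations of -0.01 and -0.31, and of -0.26 for the third pair, formed by elimination. A replicate block over the 2 numbered pairs gave 0 calls over all probes (2785 at an unadjusted p under 0.05), 0 of the 5 genes and 0 of the other genes of glucose handling. *Slc2a2* differed by 4.54 and *Slc2a4* by -1.08 in it. A block over 3 pairs gave 97, 1 and 0, with *Slc2a4* at -1.15 (adjusted p = 0.125) and *Slc2a2* past the threshold (adjusted p = 0.0484).

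*Slc2a2* also missed the threshold in the paired t-test (4.11) and with the 4 arrays (4.10). *Slc2a4* missed it with an intensity trend and robust variances (-1.15, adjusted p = 0.0640), in the unpaired and paired t-tests (-1.15) and with the 4 arrays (-0.98). The number of the 5 genes called was therefore 1 with the trend and with the unpaired t-test, and 0 with the paired t-test and the 4 arrays. At the study's threshold it was 1 instead of 2 under normexp, array weights and the 4 arrays, and 3 under the 75th percentile shift, where *Hk2* joined at -1.38. *Slc2a3* turned to 0.022 under normexp. The 8 calls among other genes of glucose handling (4 higher, 4 lower) became 14 under normexp, 16 with the trend and with array weights, 19 at an adjusted p under 0.1, 4 with the t-test and 0 with its paired form and with the 4 arrays, and 3 higher and 6 lower under the 75th percentile shift. *G6pc3* turned to 0.028 under normexp, 0.145 with array weights and 0.068 with the 4 arrays, and *Slc2a8* to -0.053 under the 75th percentile shift and -0.039 under normexp. The cause was not tested.

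Leaving out each array in turn gave from 208 calls over all probes, without 12-month replicate 1, to 2167, without 12-month replicate 2. There were 288 without 12-month replicate 3 and 322 and 459 without 3-month replicates 1 and 3. Of the 5 genes 1 was called in each of these fits, 2 passed the study's threshold, and 1 to 9 of the other genes were called. *Slc2a2* ranged from 3.89 to 4.41, *Slc2a4* from -1.34 to -1.06, *Slc2a1* from -0.53 to -0.02, *Slc2a3* from -0.57 to 0.15 and *Hk2* from -0.92 to -0.42. *G6pc1* ranged from -0.94 to 0.047, *G6pc3* from -0.35 to 0.27 and *Slc2a8* from -0.064 to 0.14. The shift in log2 ratio of *Slc2a2* within an array ranged from 3.88 to 4.60 against *Slc2a1* and from 4.71 to 5.56 against *Slc2a4*.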

Other observations

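Markers of other cells that an islet preparation can hold gave these values. For comparison, 58.0% of all tested probes had a negative difference and 8.37% passed in either direction. An unadjusted p under 0.05 was found for 5820 of the 17941 tested probes. Mesenchymal markers were higher in 5 of 5 tested genes, with a median difference of 1.53, and 1 passed, the pericyte and fibroblast receptor *Pdgfrb* at 1.68 (adjusted p = 0.0453). Of 4 tested markers of delta and PP cells all had a positive difference and 1 passed, the delta cell factor *Hhex* at 1.68 (adjusted p = 0.0236). Of 8 tested markers of neurons and Schwann cells 7 had a negative difference and 2 passed. These were the neuronal filament gene *Prph* at -3.04 (adjusted p = 0.0299) and the Schwann cell factor *Sox10* at -2.08 (adjusted p = 0.0335). *Sox10* was fitted without 3-month replicate 1, which had no value. The log2 of the summed intensity of this list was 12.55 to 13.35 at 3 months and 11.81 to 12.36 at 12 months. Of the tested markers of alpha (6), acinar (9), duct (3), endothelial (6), immune (6) and red blood cells (3) none passed in limma, with 1, 0, 0, 4, 0 and 1 at an unadjusted p under 0.05 and medians of 0.17, 0.10, 0.05, -0.76, -0.03 and -0.66.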
